A study of Mus musculus with 24 samples.

Results

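Spiral ganglion neurons carry the signal of the cochlear hair cells to the brainstem, and 8 genes often used to mark them (Nefl, Nefm, Nefh, Tubb3, Prph, Snap25, Ntrk2 and Ntrk3) were followed in cultured organs of Corti (OCs). Members were the rows of the count table whose Entrez identifier maps to these symbols, 8 of 24454 genes, and all 8 were among the 16317 genes that passed the filter on low counts. OCs were dissected from 5-day-old C57BL/6N pups of both sexes, kept in culture for 24 h and then treated for 6 or 24 h. The 4 treatments were medium without drugs (CTRL), 50 μM gentamicin (GM), an aminoglycoside antibiotic toxic to hair cells, 10 μM pioglitazone (PIO), an antidiabetic drug that activates PPAR-γ, and both drugs together (PIO+GM). All groups shared the strain, the pup age, the pre-culture and a serum-supplemented medium with penicillin, and each of the 8 groups held 3 libraries of 6 pooled OCs. An explant contains parts of neurons together with hair cells, glia, supporting cells, mesenchyme and macrophages, and which parts of the neurons it held is not stated. The levels therefore belong to whole tissue, and fewer neurons and less RNA per neuron cannot be told apart.

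Neurofilaments are the intermediate filaments of axons and are built from a light (Nefl), a medium (Nefm) and a heavy chain (Nefh), the last being the chain of mature, large-calibre axons. Prph (peripherin) is a further intermediate filament of peripheral neurons that in the cochlea marks the type II neurons of the outer hair cells, and Tubb3 encodes the neuronal class III β-tubulin of microtubules. Snap25 belongs to the SNARE complex that fuses synaptic vesicles. Ntrk2 (TrkB) and Ntrk3 (TrkC) are receptors for the neurotrophins BDNF and NT-3, on which the survival of these neurons depends during development, and both are also transcribed outside neurons, largely as truncated forms in glia and mesenchyme.

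In build GRCm38.p6 the RefSeq span of Nefl is chr14:68083863-68089095 and that of Nefm chr14:68119545-68125004, so that both lie close together. Nefh lies at chr11:4938754-4948064, Tubb3 at chr8:123411553-123422015, Prph at chr15:99053579-99058978, Snap25 at chr2:136713439-136782428, Ntrk2 at chr13:58806472-59133970 and Ntrk3 at chr7:78179986-78581034. RefSeq promoter sequences (300 bases around the start of a transcript) were at hand for 3 members. They are shown for Tubb3, the member with the lowest p-value of the difference between the times, and for Ntrk2, a receptor without a called difference, with the letters GGGCGG (searched on both strands) in capitals.
Tubb3, chr8:123411303-123411602, plus strand: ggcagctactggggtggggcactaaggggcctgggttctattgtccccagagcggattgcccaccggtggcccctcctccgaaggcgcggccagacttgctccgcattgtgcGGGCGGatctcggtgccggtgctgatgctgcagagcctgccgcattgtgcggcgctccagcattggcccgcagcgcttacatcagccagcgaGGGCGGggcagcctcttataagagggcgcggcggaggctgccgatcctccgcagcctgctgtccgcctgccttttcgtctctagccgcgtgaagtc
Ntrk2, chr13:58806319-58806618, plus strand: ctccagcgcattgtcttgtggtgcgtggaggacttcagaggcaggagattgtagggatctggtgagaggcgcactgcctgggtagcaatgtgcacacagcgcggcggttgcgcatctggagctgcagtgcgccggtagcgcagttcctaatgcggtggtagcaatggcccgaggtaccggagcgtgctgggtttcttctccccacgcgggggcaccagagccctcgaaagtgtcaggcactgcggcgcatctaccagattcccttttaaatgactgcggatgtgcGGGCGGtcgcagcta
The Tubb3 window held 2 such matches and the Ntrk2 window 1, and 35.7% of the 32851 promoters in the table held at least 1. The letters CANNTG, the E-box read by basic helix-loop-helix factors, were found in 72.3% of all windows, with 0 matches in the Tubb3 window and 1 in that of Ntrk2. G and C made up 67.3% of the Tubb3 window and 61.3% of that of Ntrk2, against a median of 52.7% over all promoters.

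Between 7211357 and 15548856 counts were assigned per library (median 12538495). Values are CPM, the counts relative to library size, scaled by TMM factors, and 3 counts, the smallest level read as a signal, corresponded to 0.193 to 0.416 CPM (counting error only). Members were covered by 23 to 2188 counts in every library except for Prph, which had 2 to 56 counts. Nothing in the labels says that replicates of a group came from separate preparations, so that p-values measure the spread between these libraries. Replicates of a group differed by more than counting noise in every pair (chi-square per degree of freedom 10.2 to 77.8), and none was a duplicate of another.

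Members varied widely between replicates. Their biological coefficient of variation was between 0.323 (Ntrk2) and 0.733 (Nefh), in the percentiles 83.2 to 99.1 of all genes tested, whose median was 0.187. The standard deviation of log2 CPM within groups was between 0.50 and 1.29, against a median of 0.28 over all genes. The 95% intervals of log2 fold changes in the 8 drug comparisons of 3 against 3 libraries were between 1.58 and 3.89 wide.

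**Figure D1:**
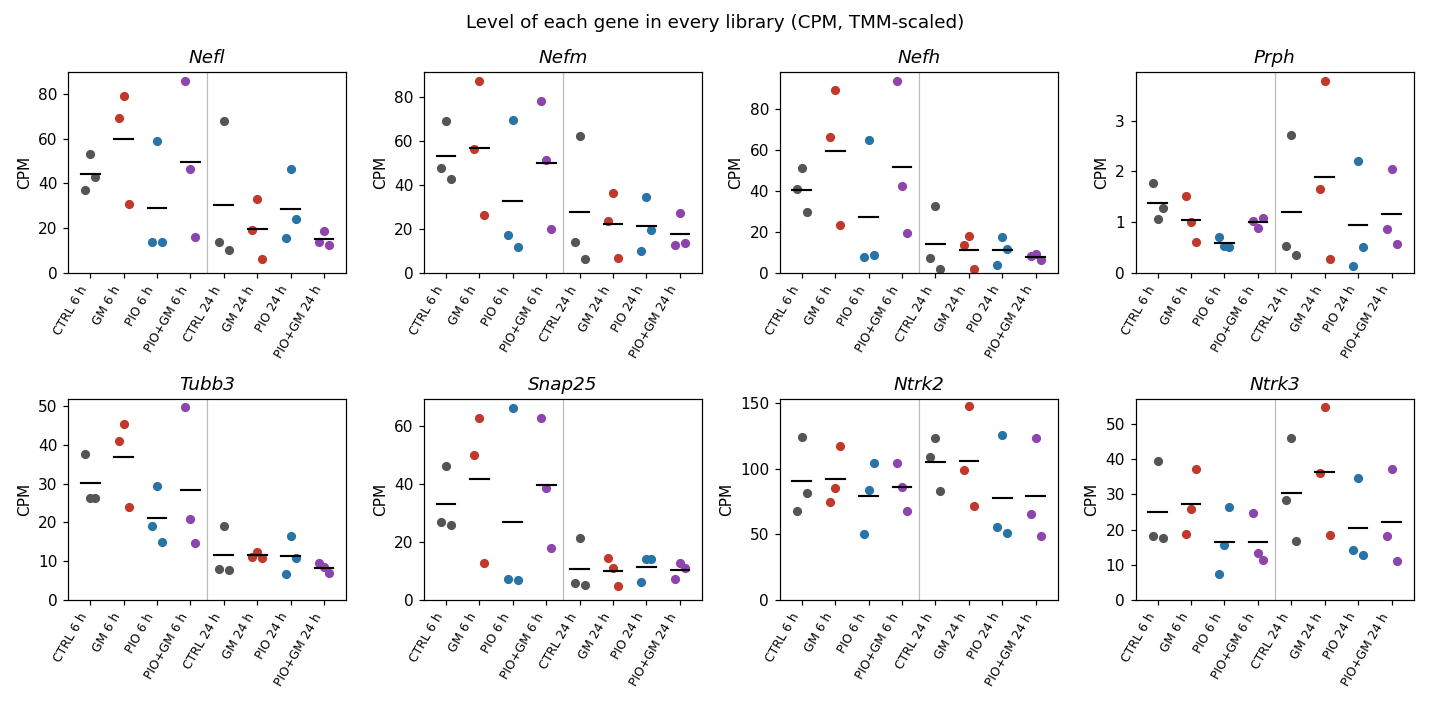
Level of each member in every library, in CPM on a linear axis, with 6 h groups left and 24 h groups right of the grey line; points are single libraries and black bars the means of 3. Tubb3, Nefh and Snap25 sit mostly lower at 24 h, with single libraries far from the others of their group, as for CTRL at 24 h with 67.7 CPM of Nefl beside 13.8 and 10.1.

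Per length of gene, the light neurofilament was the most abundant member. This order depends on the deposited lengths, 2001 bases for Nefl and 14037 for Ntrk2, which may differ from those of the transcripts present. By CPM, Ntrk2 (medians 84.4 at 6 h and 90.9 at 24 h) was above Nefl (44.7 and 17.2). Over the 24 libraries the median was 13.8 RPKM for Nefl, 9.10 RPKM for Tubb3, 8.27 RPKM for Nefm, 6.28 RPKM for Snap25 and 6.01 RPKM for Ntrk2. Nefh followed with a median of 4.47 RPKM, Ntrk3 with 3.60 RPKM and Prph with 0.508 RPKM. Nefl had the highest mean log2 RPKM in 7 of the 8 groups, the exception being PIO at 6 h, where Tubb3 (3.57 ± 0.49, SD, n = 3) and Nefl (3.5 ± 1.2) differed by less than their spread. Prph was last in every group.

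Most neighbours in the order differed by less than the larger of their standard deviations. In CTRL at 6 h, mean log2 RPKM values were 4.46 ± 0.27 for Nefl, 4.11 ± 0.30 for Tubb3, 4.01 ± 0.36 for Nefm, 3.84 ± 0.47 for Snap25 and 3.32 ± 0.39 for Nefh (SD, n = 3). The gap from Nefl to Tubb3 exceeded the larger SD of the pair, whereas the gaps from Tubb3 to Nefm and from Nefm to Snap25 did not. In CTRL at 24 h, Ntrk2 (2.89 ± 0.29) stood second after Nefl (3.42 ± 1.46), Nefh seventh (1.02 ± 1.97), and no gap between neighbours exceeded the larger SD.

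The 2 treatment times were compared first, because they separated the members most. Tubb3, Nefh, Snap25, Nefm and Nefl were lower at 24 h than at 6 h in the mean of the 4 treatments, and no member was called higher. That is 5 of 8 members with an adjusted p under 0.05, whereas 62.6% of all genes tested were called in this comparison and 30.7% were called lower and 31.9% higher. The median log2 fold change was -1.04 over the 8 members and 0.02 over all genes. No member's 12 libraries at 24 h were all outside the range of its 12 at 6 h, a separation found for 12.4% of all genes. Treatment time cannot be told apart from anything else that differed between the 6 h and the 24 h cultures.

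Tubb3, the microtubule subunit, gave the lowest p-value of the members. At 6 h its level was 37.6, 26.4 and 26.3 CPM in CTRL, 40.9, 45.4 and 24.0 CPM in GM, 19.1, 29.3 and 15.0 CPM in PIO, and 49.6, 20.9 and 14.6 CPM in PIO+GM. At 24 h it was 7.91, 19.2 and 7.86 CPM in CTRL, 11.2, 12.5 and 10.9 CPM in GM, 6.68, 16.4 and 10.9 CPM in PIO, and 9.66, 8.64 and 6.87 CPM in PIO+GM. Only CTRL replicate 2 and PIO replicate 2 at 24 h exceeded the lowest 6 h library, and the groups of CTRL, GM and PIO+GM did not overlap between the times, as was the case for 46.4%, 44.9% and 43.1% of all genes. The mean log2 fold change was -1.42 ± 0.21 (SE), a level 2.68-fold lower at 24 h (adjusted p = 1.02e-05, edgeR quasi-likelihood F-test). It stayed between -1.56 and -1.25 when any single library was left out.

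Nefh, the heavy neurofilament chain, had the most negative fold change. Its 6 h levels were 41.0, 51.0 and 29.6 CPM in CTRL, 66.0, 89.2 and 23.2 CPM in GM, 7.81, 65.0 and 8.83 CPM in PIO, and 93.4, 42.3 and 19.3 CPM in PIO+GM. Its 24 h levels were 7.30, 32.8 and 2.01 CPM in CTRL, 13.4, 18.1 and 2.00 CPM in GM, 3.73, 17.6 and 11.4 CPM in PIO, and 8.14, 9.17 and 6.22 CPM in PIO+GM. At 6 h, PIO replicates 1 and 3 were at the level of many 24 h libraries, and at 24 h CTRL replicate 2 was above CTRL replicate 3 of 6 h. The fold change was -1.99 ± 0.46 on the log2 scale, or 3.97-fold lower (adjusted p = 0.000977).

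Snap25, the SNARE protein of synaptic vesicles, showed a like pattern over libraries. At 6 h it had 26.9, 46.3 and 25.9 CPM in CTRL, 50.0, 62.9 and 12.8 CPM in GM, 7.28, 66.2 and 7.02 CPM in PIO, and 62.9, 38.7 and 17.8 CPM in PIO+GM. At 24 h it had 6.06, 21.3 and 5.24 CPM in CTRL, 14.4, 11.1 and 4.74 CPM in GM, 6.36, 14.1 and 14.0 CPM in PIO, and 7.28, 12.9 and 10.9 CPM in PIO+GM. Apart from CTRL replicate 2, the 24 h libraries were between 4.74 and 14.4 CPM, and at 6 h GM replicate 3 and PIO replicates 1 and 3 lay in this range. The log2 fold change was -1.70 ± 0.39, or 3.25-fold lower (adjusted p = 0.000787), and Tubb3, Nefh and Snap25 were called without any one of the 24 libraries.

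Nefl and Nefm were also lower, with calls that were kept in 22 (Nefl) and 23 (Nefm) of the 24 fits without 1 library. Nefl ranged from 13.7 to 85.8 CPM with a median of 44.7 at 6 h and from 6.01 to 67.7 CPM with a median of 17.2 at 24 h, with a log2 fold change of -0.97 ± 0.37 (1.95-fold lower, adjusted p = 0.0272). Nefm ranged from 11.7 to 87.5 CPM with a median of 49.4 at 6 h and from 6.46 to 62.3 CPM with a median of 16.8 at 24 h (-1.10 ± 0.39, 2.14-fold lower, adjusted p = 0.0197). In both genes the highest 24 h library was CTRL replicate 2, above most of the libraries of 6 h. Without PIO replicate 2 at 6 h, 3 of 8 members were called, since Nefl (adjusted p = 0.0848) and Nefm (0.065) were past the threshold no longer, and Nefl was also lost without PIO+GM replicate 1 at 6 h (0.065).

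Peripherin and the neurotrophin receptors gave no call between the times. Prph ranged from 0.506 to 1.77 CPM at 6 h and from 0.129 to 3.78 CPM at 24 h, the lowest being PIO replicate 1 at 24 h, where its 2 counts were under the floor. Its fitted log2 fold change was 0.42 with a 95% interval from -0.47 to 1.31 (adjusted p = 0.404), while the mean log2 CPM was 0.09 at 24 h and 0.13 at 6 h. Ntrk2 had medians of 84.4 CPM at 6 h and 90.9 CPM at 24 h, with an interval of the log2 fold change from -0.33 to 0.46 (adjusted p = 0.771). Ntrk3 had medians of 18.6 and 23.4 CPM, with an interval from -0.22 to 0.93 (adjusted p = 0.265). The interval of Ntrk2 was the narrowest of the members and excluded a fold change of the size measured for Tubb3.

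**Figure D2:**
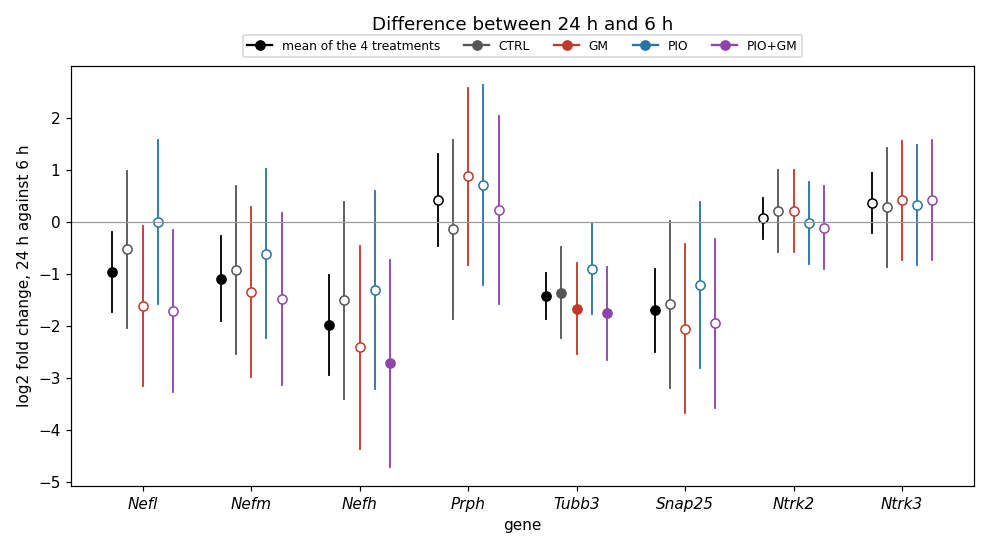
Fitted log2 fold change of 24 h against 6 h for each member, in the mean of the 4 treatments (black) and within each treatment; lines are 95% intervals, filled points have an adjusted p under 0.05. The 5 filled black points lie between -1.99 (Nefh) and -0.97 (Nefl), and the intervals of Prph, Ntrk2 and Ntrk3 include 0.

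Within single treatments, with 3 libraries against 3, few members were called. In CTRL, 28% of all genes were called and 1 of 8 members, Tubb3 (log2 fold change -1.36 ± 0.42, adjusted p = 0.0215). This call was lost without CTRL replicate 1 at 6 h (adjusted p = 0.0782), CTRL replicate 1 at 24 h (0.095) or CTRL replicate 3 at 24 h (0.0961), whereas 4 members were called without CTRL replicate 2 at 24 h. In GM, 24.2% of all genes and again only Tubb3 passed (-1.67 ± 0.42, adjusted p = 0.00747), and 3 members were called without GM replicate 3 at 6 h. With all libraries, DESeq2 and edgeR's likelihood ratio test each called 3 members in GM. In PIO, 29% of all genes and 0 members were called by the edgeR quasi-likelihood test, 1 member (Tubb3) having an unadjusted p under 0.05, and 0 were called by DESeq2 as well.

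In PIO+GM, 34.6% of all genes and 2 members were called, Tubb3 (-1.76 ± 0.43, adjusted p = 0.0041) and Nefh (-2.72 ± 0.95, adjusted p = 0.0324). Nefh kept this call only in the fit without PIO+GM replicate 3 at 6 h (adjusted p = 0.0238), in which 4 members were called, and in the other 5 fits its adjusted p was between 0.0572 and 0.124. Snap25 had log2 fold changes of -1.59, -2.06, -1.21 and -1.95 in CTRL, GM, PIO and PIO+GM, with adjusted p between 0.0569 and 0.241. Leaving out PIO replicate 2 at 6 h turned the PIO values of Nefh (-1.31 to 0.39), Snap25 (-1.21 to 0.68) and Nefm (-0.62 to 0.56) and moved that of Nefl from 0 to 1.05. In the F-test over all 8 groups, Tubb3 (adjusted p = 0.0011) and Nefh (0.0444) were called and Snap25 was not (0.0508), with 50.1% of all genes called. With 1 library left out, 1 member was called in 14 of the 24 fits, among them those without any library of CTRL at 6 h or of PIO+GM at 24 h.

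The proportion of heavy to light chain was mostly lower at 24 h. Per length, the ratio of Nefh to Nefl was between 0.286 and 0.607 at 6 h, with a median of 0.478, and between 0.0994 and 0.35 at 24 h, with a median of 0.244. The lowest ratio at 6 h was that of PIO replicate 1, followed by PIO replicate 3 (0.315), CTRL replicate 3 (0.346) and GM replicate 3 (0.376), and of these the first 3 lay within the range of the 24 h libraries. Nefm to Nefl changed less, with ranges of 0.505 to 0.802 at 6 h and 0.395 to 0.891 at 24 h. These ratios were described after the levels had been seen, and no test was applied.

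**Figure D3:**
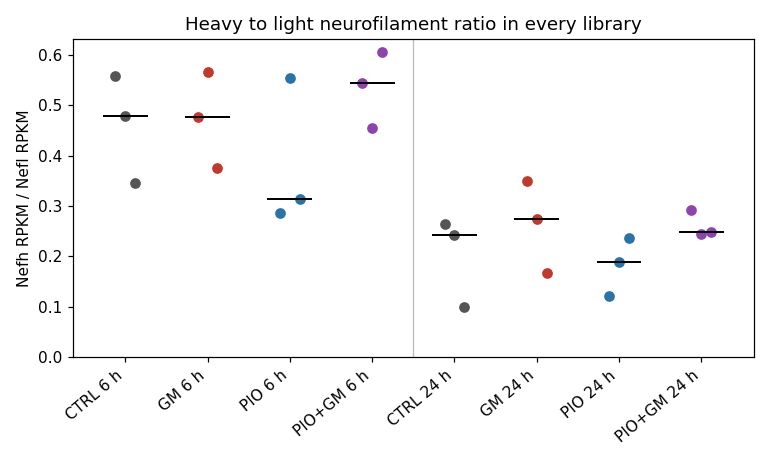
Ratio of Nefh to Nefl, each in RPKM, in every library on a linear axis; points are libraries, black bars medians of 3. Values lie between 0.286 and 0.607 at 6 h and between 0.0994 and 0.35 at 24 h.

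The comparison of GM with CTRL asks whether the hair cell toxin altered the neuronal transcripts. No member was called at 6 h or at 24 h, and by edgeR 0% and 0.0123% of all genes were. At 6 h 243 genes had an unadjusted p under 0.05, at both times 0 members did, and DESeq2 called 0 members. Nefl had 36.8, 53.3 and 43.0 CPM in CTRL and 69.4, 78.9 and 30.9 CPM in GM at 6 h, and 13.8, 67.7 and 10.1 CPM in CTRL and 19.2, 33.1 and 6.01 CPM in GM at 24 h. The libraries overlapped at both times, with intervals of the log2 fold change from -1.07 to 1.93 and from -2.19 to 0.86. Without CTRL replicate 2 at 24 h the log2 fold change of Nefl turned from -0.66 to 0.70, that of Nefm from -0.32 to 1.12, that of Nefh from -0.35 to 1.26 and that of Tubb3 from -0.03 to 0.55, and without GM replicate 2 that of Prph turned from 0.61 to -0.41. At 24 h replicate 2 had the highest level in each of the 4 groups for Nefl, Nefm, Nefh and Prph. These fits left it out of 1 group and kept it in the other. Tubb3 had an interval from -0.57 to 1.14 at 6 h and from -0.91 to 0.86 at 24 h, and Ntrk2 one from -0.77 to 0.81 and from -0.78 to 0.80. In the mean of the 4 gentamicin comparisons, for which 0.276% of all genes were called, the estimates lay between -0.09 (Nefl) and 0.31 (Prph), and the lowest unadjusted p was 0.473.

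PIO against CTRL, the effect of the PPAR-γ agonist alone, gave 0 called members at both times, with 0.337% of all genes called at 6 h and 0.153% at 24 h. At 6 h Prph had 1.77, 1.06 and 1.28 CPM in CTRL and 0.702, 0.529 and 0.506 CPM in PIO. Its 3 PIO libraries were all below the 3 of CTRL, a separation found for 15.4% of all genes, yet these rest on 5 to 22 counts each and the interval of the log2 fold change ran from -3.12 to 0.66 (adjusted p = 0.538). For the other members the libraries overlapped. At 24 h the values of Nefl (-0.10 to 1.26), Nefm (-0.38 to 1.06), Nefh (-0.38 to 1.23), Tubb3 (-0.05 to 0.52) and Prph (-0.38 to 1.10) turned without CTRL replicate 2, while PIO replicate 2 was kept. Nefh in PIO at 6 h consisted of 2 libraries near 8 CPM and 1 of 65.0 CPM, and its estimate of -0.59 became -2.28 without that library, with adjusted p values between 0.323 and 0.962 over the fits without 1 library.

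PIO+GM against GM, which shows pioglitazone in the presence of the toxin, gave 0 called members as well, with 1.32% of all genes called at 6 h and 0.11% at 24 h. Estimates ranged from -0.73 (Ntrk3) to -0.06 (Snap25) at 6 h and from -0.71 to 0.04 (Snap25) at 24 h. Tubb3 at 24 h was the only member with separated libraries (18.4% of all genes), between 10.9 and 12.5 CPM in GM and between 6.87 and 9.66 CPM in PIO+GM, with an interval from -1.35 to 0.44 (adjusted p = 0.901). PIO+GM against CTRL called 0 members, with 2.64% of all genes called at 6 h and 0.478% at 24 h. Without CTRL replicate 2, but with PIO+GM replicate 2 kept, its 24 h values of Nefl (-1.02 to 0.34), Nefm (-0.64 to 0.80), Nefh (-0.86 to 0.76), Tubb3 (-0.48 to 0.09) and Prph (-0.10 to 1.39) turned as well. Across these 6 comparisons with pioglitazone 0 members had an unadjusted p under 0.05 and DESeq2 called 0. The comparisons share control libraries.

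Averaged over both times and both gentamicin states, all 8 estimates for pioglitazone were below 0, between -0.66 (Ntrk3) and -0.07 (Snap25), yet none passed in the fit without a block, whereas 20.5% of all genes did (10.2% lower and 10.3% higher). Ntrk3, the NT-3 receptor, came closest. At 6 h it ranged from 7.28 to 26.3 CPM in PIO and from 11.3 to 24.7 CPM in PIO+GM, against 17.7 to 39.4 CPM in CTRL and 18.8 to 37.2 CPM in GM. At 24 h Ntrk3 had 12.7 to 34.7 CPM in PIO and 11.1 to 37.3 CPM in PIO+GM, against 16.8 to 45.9 CPM in CTRL and 18.4 to 54.7 CPM in GM. Taken as unpaired groups, the ranges overlapped at both times. Matched by replicate number at 24 h, each PIO library was below its CTRL library and each PIO+GM library below its GM library. At 6 h PIO replicate 3 (26.3 against 17.7 CPM) and PIO+GM replicate 1 (24.7 against 18.8 CPM) were above theirs and the others below. The labels do not say what a number stands for. With the replicate block within times Ntrk3 was called, with 4765 of 16317 genes called. Without a block the log2 fold change of Ntrk3 was -0.66 ± 0.28 with an unadjusted p of 0.0276 and an adjusted p of 0.0973. The adjusted p was between 0.0435 and 0.182 over the fits without 1 library, with Ntrk3 past the threshold without PIO replicate 3 at 6 h, PIO replicate 2 at 24 h or PIO+GM replicate 2 at 24 h. Tubb3 (-0.35, adjusted p = 0.246) passed without PIO+GM replicate 1 at 6 h (-0.52, adjusted p = 0.0422).

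None of the 5 interactions of the drugs with time or with each other was called for a member or for any other gene (0% of genes), and 0 members had an unadjusted p under 0.05, as 125 to 714 of all genes did. The intervals of these differences were between 2.24 and 5.42 wide on the log2 scale, so that differences of several fold could not have been detected for most members. DESeq2 also called 0 members in the interactions.

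**Figure D4:**
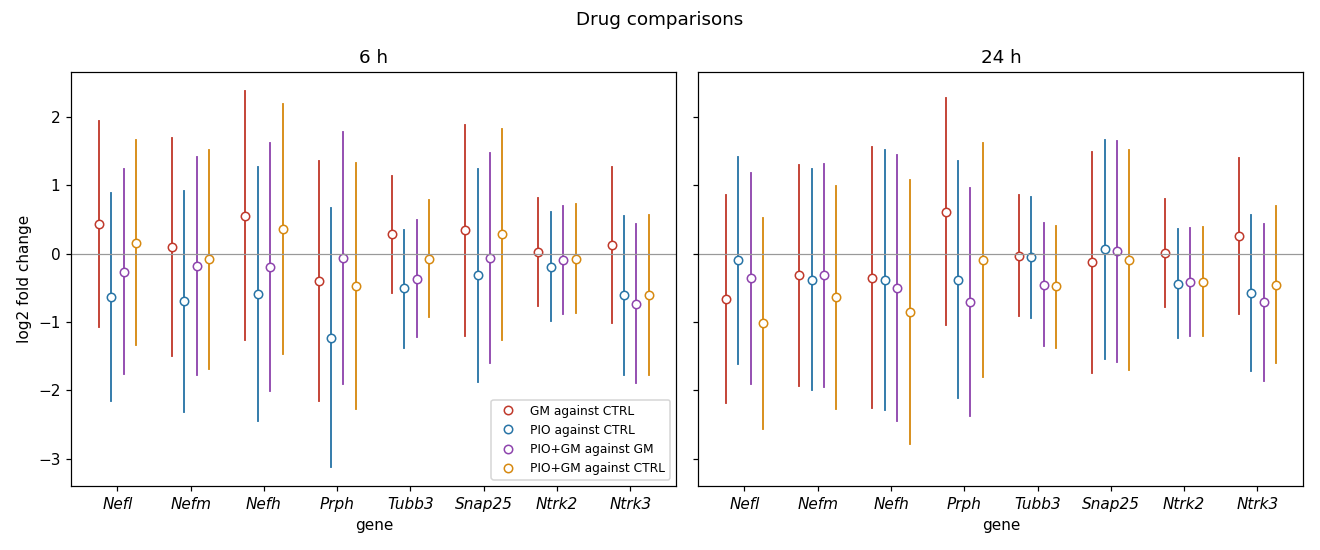
Fitted log2 fold change of each member in 4 drug comparisons at 6 h (left) and 24 h (right), with 95% intervals; open points have an adjusted p of 0.05 or more. All 64 points are open and all intervals include 0, and the estimate farthest from 0 is Prph in PIO against CTRL at 6 h (-1.23).

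Members moved together from library to library, in separate sets. After subtraction of the group means, log2 CPM of Nefl, Nefm and Nefh correlated with Pearson's r of 0.96 to 0.97 over the 24 libraries, Snap25 with these at 0.89 to 0.90 and Tubb3 at 0.78 to 0.82. Ntrk2 and Ntrk3 followed each other (r = 0.96) and the neurofilaments less closely (0.47 to 0.57). The mean of 12 macrophage markers correlated with Ntrk2 at 0.92 and with Ntrk3 at 0.89, and the mean of 20 hair cell markers at -0.87 and -0.90. For the neurofilaments the same values were 0.22 to 0.31 and -0.34 to -0.31, and for Schwann cell and satellite glia markers 0.65 to 0.73. All these points share the libraries, and the values are descriptions without a test. Set against the label of spiral ganglion neuron, Nefl, Nefm, Nefh, Tubb3 and Snap25 varied with the other neuronal lists (0.81 to 0.97 with identity, cytoskeletal, presynaptic and channel genes), while Ntrk2 and Ntrk3 did so at 0.33 to 0.61 and Prph at 0.54 to 0.72. Prph correlated with the neurofilaments at 0.69 to 0.72, with Snap25 at 0.47 and with hair cell markers at -0.56.

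**Figure D5:**
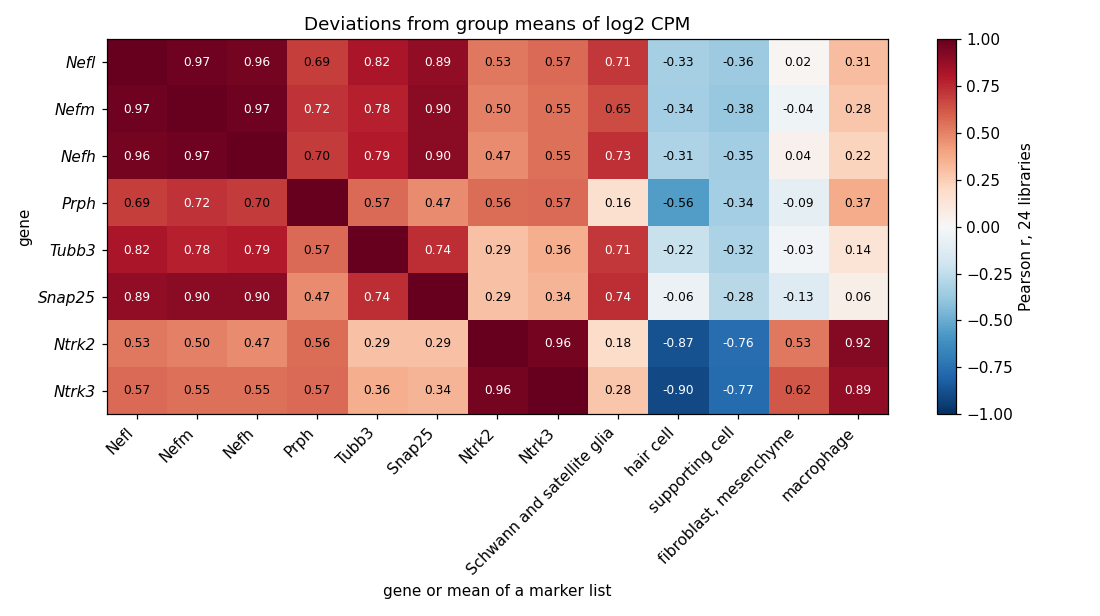
Pearson's r over 24 libraries between deviations of log2 CPM from the group means, for each pair of members and for each member with the mean of 5 marker lists. Nefl, Nefm, Nefh and Snap25 form a block of 0.89 to 0.97, and Ntrk2 and Ntrk3 go with macrophage markers (0.92 and 0.89) and against hair cell markers (-0.87 and -0.90).

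The genes most like the mean profile of the 8 members, over 24 libraries and without subtraction of group means, were Meg3 (r = 0.962), Islr2 (0.949), Cntn2 (0.948), Add2 (0.948) and Elavl4 (0.945). For single members the closest genes were Stmn3 for Nefl (0.971), Elavl4 for Nefm (0.987) and Chgb for Snap25 (0.978). Tubb3 was closest to Aldh1a3 (0.954) and Prph to Tmem132e (0.846). The receptors were closest to genes of connective tissue and basement membrane, Ntrk2 to the collagen gene Col14a1 (0.892) and Ntrk3 to the laminin gene Lama4 (0.924).

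Other neuronal genes were examined as lists, whose counts stand beside 30.7% of all genes called lower and 31.9% called higher at 24 h, and no list was tested against that share. Between the times, 11 of 19 further cytoskeletal and axon growth genes were lower at 24 h and 1 was higher, with a median log2 fold change of -0.31. Gap43, a protein of growth cones, was at 8.25 to 31.8 CPM at 6 h and at 3.08 to 15.3 CPM at 24 h (-0.95 ± 0.12, adjusted p = 8.52e-07), and Map2, a microtubule-associated protein of dendrites, fell from a median of 260 to 118 CPM (-1.05 ± 0.13, adjusted p = 1.38e-06). Of 22 presynaptic genes 11 were lower and 3 higher. Sv2c, a vesicle glycoprotein, was 6.55-fold lower (adjusted p = 3.49e-10), whereas Syt1, the calcium sensor of vesicle release, was 2.04-fold higher (adjusted p = 1.27e-05), its median rising from 81.6 to 184 CPM.

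Of 27 identity genes of spiral ganglion and sensory neurons, Neurod1, Neurog1 and Th did not pass the filter, and 13 of the remaining 24 were lower and 3 higher (median -0.80). Nsg1, an endosomal protein of neurons, was at 44.3 to 110 CPM at 6 h and 23.1 to 35.3 CPM at 24 h, without overlap (2.67-fold lower, adjusted p = 1.28e-08). Tac1, the precursor of substance P, was at 0.612 to 6.57 CPM at 6 h and at 0 to 0.529 CPM at 24 h (adjusted p = 5.2e-09). Among 22 channel and receptor genes of excitability, 7 were lower, close to the share of all genes, and 1 was higher, with Cacna2d1 1.33-fold lower (adjusted p = 0.000143) and the sodium channel gene Scn2a 1.72-fold higher (0.000158).

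The neurotrophin pathway did not move in 1 direction. Of 20 genes other than Ntrk2 and Ntrk3, 9 were higher and 3 lower at 24 h, with a median of 0.10. Maged1, a partner of the p75 receptor, was 1.57-fold higher (adjusted p = 1.72e-08). Of 20 genes of the response to axon injury, 13 were lower and 2 higher (median -1.15). Tnfrsf12a, the TWEAK receptor, was 5.00-fold lower (adjusted p = 2.91e-10) and Sprr1a, which is induced in injured neurons, 16.3-fold lower (2.44e-09). Sprr1a was at 2.16 to 18.7 CPM at 6 h and at 0.0643 to 1.57 CPM at 24 h. The lowest of these lay under the floor, so that the size of its fold change is uncertain.

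Markers of the other cells of the explant were counted in the same way, beside 62.6% of all genes called. Of 19 tested markers of Schwann cells and satellite glia (Gfra3 did not pass the filter), 9 were lower and 3 higher. Mag, a myelin glycoprotein, was 6.05-fold lower (adjusted p = 6.37e-06) and S100b 4.84-fold higher (2.86e-07), and the summed level was between 711 and 3630 CPM at 6 h and between 848 and 2150 CPM at 24 h. Of 20 hair cell markers 5 were higher and 4 lower. The 2 with the lowest p-values, Pvalb (3.73-fold, 3.74e-06) and Slc17a8 (2.92-fold, 1.46e-05), were among the lower ones, with summed levels of 666 to 1280 and 707 to 1440 CPM. Of 18 supporting cell markers 7 were higher and 0 lower, among them the connexins Gjb6 (2.45-fold, 1.43e-06) and Gjb2 (1.75-fold, 0.000176), with sums of 4730 to 11900 and 5450 to 11600 CPM.

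Of 12 fibroblast and mesenchyme markers 6 were higher and 1 lower, with Pdgfra 1.46-fold (1.25e-06) and Tbx18 2.07-fold higher (1.35e-05) and sums of 3770 to 7480 CPM at 6 h and 5150 to 8890 CPM at 24 h. Of 12 macrophage markers 7 were higher and 1 lower, with Lyz2 5.07-fold (4.34e-06) and C1qa 3.13-fold higher (2.16e-05), and their summed level was 65.5 to 165 CPM at 6 h and 100 to 309 CPM at 24 h. Gfra3 was the single marker of these 5 lists with libraries at 0, of which it had 2. The part of these cells in the time differences of the members was not tested.

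For pioglitazone, single genes of the lists were called, at counts to be read against the 10.2% of all genes called lower and 10.3% called higher. Gap43 was lower in PIO than in CTRL at 6 h (log2 fold change -1.26 ± 0.23, adjusted p = 0.0244) and at 24 h (-1.27 ± 0.23, 0.0293), in PIO+GM than in GM at 6 h (-1.11 ± 0.23, 0.033) and in PIO+GM than in CTRL at 24 h (-1.05 ± 0.23, 0.048). It was not called in PIO+GM against CTRL at 6 h (-0.81, 0.0572) or against GM at 24 h (-1.09, 0.076), and in a fit of the 12 libraries of 6 h alone 0 genes were called in PIO against CTRL or PIO+GM against GM. In the mean of the pioglitazone comparisons it was 2.27-fold lower (adjusted p = 6.29e-06), with 2 more of the 19 cytoskeletal genes, Dpysl3 (1.41-fold) and Tubb2b (1.26-fold), and 0 higher. Cplx2, a regulator of vesicle fusion, was the 1 presynaptic gene of 22 that was lower (1.52-fold, adjusted p = 0.00033). Of 22 excitability genes 3 were lower, the glutamate receptor subunits Gria3 (1.60-fold, adjusted p = 9.92e-05) and Gria4 (1.27-fold, 0.0431) and the channel subunit Kcnab1 (1.34-fold, 0.0204).

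In the neurotrophin list 3 of 20 genes were lower and 2 higher with pioglitazone. Bdnf, the TrkB ligand, was 1.67-fold lower (adjusted p = 0.00495) and Ngfr, the p75 receptor, 2.01-fold lower (0.0157), as was Arhgdia (1.33-fold, 0.00753), while the adaptor Frs2 was among the higher ones (1.18-fold, 0.00204). Of the identity genes 4 of 24 were lower, Runx1 (1.76-fold, 0.00198) and Celf4 (1.45-fold, 0.00131) among them, and of the axon injury genes 2 of 20 were lower and 1 higher. Of the fibroblast markers 4 of 12 were lower, among them Pdgfra (1.52-fold, adjusted p = 1.58e-05) and Postn (2.06-fold, 0.000144), as were 5 of 20 hair cell and 5 of 19 glial markers, and 0 of 18 supporting cell and 0 of 12 macrophage markers were called. The part of these markers in the values of Ntrk3 and the neuronal lists was not tested. For gentamicin the single called list gene was the supporting cell gene Hes5 (4.50-fold lower in the mean of the gentamicin comparisons, adjusted p = 0.0293).

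Whether strand and reads with several matches were taken into account in counting is not stated. In RefSeq the span of Nefm overlaps 1 other gene and that of Nefh 2, Snap25, Ntrk2 and Ntrk3 overlap 1 each, and Nefl, Tubb3 and Prph none. In the GENCODE annotation a long Nefm transcript on the opposite strand covers 1108 of the 3380 exonic bases of Nefl (32.8%). The counted length of Nefm, 3230 bases, is shorter than the 5782 exonic bases of Nefm in GENCODE, and the RefSeq spans of both genes do not overlap. Of all windows of 76 bases in protein-coding transcripts, 0 were shared with a gene outside the 8 members for 7 of them, and 57 of 22275 (0.256%) for Ntrk3.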

How the data were processed

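The deposited table holds read counts per Entrez gene for 24 libraries, and 1 further column with gene lengths in base pairs. According to the methods, the authors mapped 76-base single reads of stranded total RNA with RNA-STAR 2.5.2a (build mm10 in the submitters' processing notes) and counted reads starting in any RefSeq exon with QuasR 1.16.0. Each library has 2 flow cells in its label. Symbols were matched for 24374 of 24454 identifiers (80 unmatched) with GRCm38.p6.

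Differences were tested with edgeR 4.0.16 under R 4.3.3 (TMM, filterByExpr, quasi-likelihood F-test, 1 mean per group over all 24 libraries, no block), with Benjamini-Hochberg adjustment over 16317 genes and a threshold of 0.05. CPM are TMM-scaled, log2 CPM have a prior count of 2, and RPKM use the deposited lengths. Tests covered 12 pairs of groups, means over groups, 5 interactions and an F-test over 8 groups. Promoters are from RefSeq (GRCm38.p6), transcripts from GENCODE. Python 3.11.15 and matplotlib 3.10.9 drew the figures.

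The members and gene lists were chosen with earlier results of these data known, so no list is independent support for its direction. Named were all members, from each list up to 2 genes with the lowest p-value between the times and genes past the threshold in a drug comparison, at most 4 per list and comparison, and the genes most like the members. Some genes under this rule are not reported here. Alternatives were DESeq2 1.42.0, edgeR's likelihood ratio test, library size without TMM, other filters, the replicate block, single time points, a prior count of 0.5 and leaving out each library.

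The procedure was tested on simulated data. For the mean difference between the times (16082 genes), 83.9% of changes of 1 and 99.1% of changes of 2 on the log2 scale were recovered. For GM against CTRL at 6 h (16070 genes) 50% and 80.4% were. The changed genes were drawn at random from all genes, whose median coefficient of variation was 0.187, and the libraries were drawn independently. The members had coefficients of 0.323 to 0.733, so that these rates cannot be taken over for them.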

Additional observations from a re-analysis of the deposited data

How the results depend on the processing

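The counts of called members kept to within 1.5 times under library size without TMM, both other filters and single time points. In GM, 24 h against 6 h, the count rose from 1 to 3 by DESeq2 and to 3 by edgeR's likelihood ratio test. Leaving out 1 library gave 0 to 4 members for 24 h against 6 h in CTRL, 1 to 3 in GM, 1 to 4 in PIO+GM and 3 to 5 in the mean of the treatments, 1 to 3 in the F-test over groups, and 0 to 1 for the mean of pioglitazone. Nefl remained the gene with the highest RPKM in 7 groups with a prior count of 0.5 and without TMM. Of 534 drug values under alternatives other than leaving out a library, 11 changed sign, and of 768 with a library left out 106 did, none past the threshold in either fit, and the same held for 1 of 235 and 25 of 384 values between the times. Prph rested on 2 to 56 counts per library, and its coefficient of variation (0.666) was also among the higher ones of the members.

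With the replicate block, members called rose to 4 in CTRL, 5 in GM, 5 in PIO+GM and 5 in the F-test (3 blocks over both times), and to 1 for pioglitazone (Ntrk3, adjusted p = 0.0198, 6 blocks within times), with no other change of over 1.5 times. The labels do not say what a number stands for. Libraries of the same number correlated in their deviations with a mean r of 0.11 at 6 h (-0.05 for different numbers; 9 of 18 pairs over 0.1) and 0.38 at 24 h (-0.18; 15 of 18), and 8 of 12 libraries at each time correlated best with their own number. This is a hint from the data that a number may mark something shared, most at 24 h. Between a 6 h and a 24 h library the mean r was -0.04 for the same number and 0.02 for different ones. Because not every pair was over 0.1, the fit without a block was kept. Any effect shared by a number therefore remained in the spread used by the drug comparisons.

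Counts over all genes moved by more than 1.5 times in several drug comparisons. PIO against CTRL had 55 at 6 h (0 with the libraries of that time point to 383 by DESeq2) and 25 at 24 h (16 without a filter to 241 with the block). PIO+GM against GM had 216 (0 to 1990) and 18 (13 to 112), PIO+GM against CTRL 431 (2 to 1543) and 78 (45 to 318), GM against CTRL 2 at 24 h (0 to 24) and the mean of gentamicin 45 (8 to 130). The cause was not tested.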

Other observations

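Replicate 2 stood out among the 24 h libraries. Of 32 pairs of a member and a group at 24 h, replicate 2 had the highest level in 30 and replicate 1 in 2, and for 6 members (Nefl, Nefm, Nefh, Prph, Ntrk2 and Ntrk3) it was highest in all 4 groups. Over all genes tested, 14.5% had replicate 2 highest in all 4 groups at 24 h. At 6 h, replicate 2 was highest in 16 of 32 pairs, replicate 1 in 11 and replicate 3 in 5, with 0 members highest in the same replicate in all groups. The replicate 2 libraries of 24 h also had the highest summed macrophage markers of their groups (208 CPM in CTRL, 298 in GM, 300 in PIO and 309 in PIO+GM, against 100 to 165 CPM in the other 8 libraries). Their summed hair cell markers (1050, 828, 752 and 707 CPM) and supporting cell markers (8160, 6480, 5540 and 5450 CPM) were the lowest of each group. The part of these markers in the levels of the members was not tested.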
